A study of Mus musculus with 24 samples.

Results

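Aminoacyl-tRNA synthetases were followed in RNA sequencing of mouse heart, in 24 libraries. The members were 39 genes taken by symbol from a fixed list, out of 24421 genes in the count files: 20 cytosolic synthetases, 3 partner proteins of the cytosolic enzymes (Aimp1, Aimp2 and Eef1e1) and 16 mitochondrial synthetases, whose symbols end in 2. All 39 were found and all 39 passed the filter on low counts. The hearts came from male mice aged 14 weeks on chow, of a mixed strain that was mostly C57BL/6N with some 129. There were 6 genotypes. Wild type, Acadl wt / Acadvl wt, had 4 libraries. Among mice with Acadl Het, 4 libraries were Acadl Het / Acadvl wt, 3 were Acadl Het / Acadvl Het and 4 were Acadl Het / Acadvl KO. Among those with Acadl KO, 4 libraries were Acadl KO / Acadvl wt and 5 were Acadl KO / Acadvl Het. Acadl encodes long-chain and Acadvl very long-chain acyl-CoA dehydrogenase, enzymes of mitochondrial fatty acid oxidation, and the Acadl Het / Acadvl KO mice therefore also carried 1 altered Acadl allele. Nothing in the labels says that each library came from a different mouse, so the spread behind each p-value is that of these libraries and may be technical.

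An aminoacyl-tRNA synthetase joins an amino acid to its tRNA, and most amino acids have an enzyme of their own. Most of the cytosolic and mitochondrial enzymes are made from separate nuclear genes, and the Kars and Gars genes each serve both compartments. In the cytosol several synthetases are held in a multi-synthetase complex on the scaffold proteins Aimp1, Aimp2 and Eef1e1. When charged tRNA runs short, uncharged tRNA activates the kinase GCN2 (Eif2ak4), which phosphorylates eIF2 and raises translation of the transcription factor ATF4. ATF4 is known to induce many cytosolic synthetase genes together with genes of amino acid synthesis and import, and it binds an element that joins a C/EBP and an ATF site.

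The core of that element, TGATGNAA, was searched on both strands in RefSeq promoters (assembly GRCm38.p6, 250 bases before to 50 after the start of the gene), which were given for 30 of the 39 members, Mars through the synonym Mars1. It was present for 5 members, Aars, Gars, Iars, Tars and Yars, all of them cytosolic. That was 5 of 16 cytosolic and partner members (31.2%) and none of 14 mitochondrial ones, against 4.51% of the 27025 genes in the promoter table, a description with no test. A match in each of the 5 genes is shown because 4 of them were among the 6 cytosolic members with the largest change described below. Each is printed 5′ to 3′ on the strand that reads the motif, with the motif in capitals.
Aars, chr8:111033840-111033869, minus strand: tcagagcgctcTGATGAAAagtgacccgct
Gars, chr6:55037960-55037989, minus strand: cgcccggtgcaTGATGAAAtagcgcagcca
Iars, chr13:49682126-49682155, minus strand: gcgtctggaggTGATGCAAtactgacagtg
Tars, chr15:11399655-11399684, plus strand: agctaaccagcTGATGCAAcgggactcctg
Yars, chr4:129189895-129189924, plus strand: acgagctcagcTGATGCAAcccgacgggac
Positions were counted on the gene's own strand from the start in the RefSeq table, where 1 is the first base of the RefSeq transcript. The most upstream base of the match was at 10 for Aars, -30 for Gars, 8 for Iars, -15 for Tars and 4 for Yars. That base is the last of the motif as printed, except for Yars, where it is the first. For Yars the count files give another start, at 129189795. The genes are on the plus strand except Tars. The cyclic AMP response element TGACGTCA matched in no member and in 2.03% of genes. The E-box CACGTG, bound by MYC and related factors, matched in Aars, Farsb, Iars, Tars and Ears2, 5 of 30 members (16.7%), against 8.09% of genes.
Promoters of Cars, Hars, Lars, Nars, Rars, Vars, Wars, Hars2 and Pars2 were not analysed here.

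Total counts ran from 34320838 to 51743114 per library. The labels give 2 RNA isolation batches, 9 libraries in batch 1 and 15 in batch 2, each with all genotypes. Levels are given in CPM, counts scaled to a common library total with edgeR's TMM factors. A member is said to rise or fall where edgeR's quasi-likelihood test gave an adjusted p under 0.05 over all 15804 genes tested, and changes are on the log2 scale. Acadvl reads followed the labels among libraries of the same Acadl label. With Acadl Het they stood at 1550 to 1743, 1039 to 1122 and 494.7 to 733.8 CPM for Acadvl wt, Het and KO. With Acadl KO they stood at 1893 to 2429 CPM for Acadvl wt and 1163 to 1645 CPM for Acadvl Het. The last range overlapped wild type (1550 to 1593 CPM). Acadl reads did not follow the labels: Acadl stood at 1697 to 2100 CPM in the 9 libraries labelled Acadl KO and at no more than 1625 CPM in the others. The 9 libraries are therefore called labelled Acadl KO, and their direction rests on the label. The 8 ventricular cardiomyocyte markers were detected in every library at summed levels of 66210 to 87190 CPM, and their ranges overlapped between all genotypes. Summed markers of skeletal muscle, fibroblasts, endothelium, leukocytes and smooth muscle overlapped between the groups of each comparison of 2 genotypes below. The liver gene Alb exceeded 10 CPM in 6 libraries: all 3 Acadl Het / Acadvl Het libraries, Acadl Het / Acadvl KO replicate 2 and Acadl KO / Acadvl wt replicates 2 and 3. Acadl Het / Acadvl Het replicate 1 held 17.258% of its counts in Rn45s, the ribosomal RNA precursor, which touches Lars2 below.

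In wild-type hearts the members differed widely in level per length. Lars2, the mitochondrial leucyl enzyme, stood highest at 92.5 ± 20.5 CPM per kilobase of exon (SD, n = 4), a value that must be read with its tie to ribosomal RNA given below. Kars, the lysyl enzyme of both compartments, followed at 52.5 ± 1.497 CPM per kilobase, then the scaffold Aimp1 at 50.05 ± 2.31 and the mitochondrial isoleucyl enzyme Iars2 at 41.7 ± 0.89. The lowest were the mitochondrial tryptophanyl enzyme Wars2 at 1.97 ± 0.026 CPM per kilobase and the prolyl enzyme Pars2 at 1.93 ± 0.127. The median level was 20.3 CPM per kilobase over the cytosolic synthetases and 9.48 over the mitochondrial ones. Of the 38 neighbouring pairs in this order, 27 had wild-type ranges that overlapped, so neighbours in it often could not be separated. Kars and Aimp1 were such a pair, and so were Wars2 and Pars2. Among cytosolic and partner members the lowest wild-type levels belonged to Eef1e1 (6.83 CPM per kilobase), Cars (8.17), Yars (10.8), Farsa (11.8) and Tars (13.5).

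Hearts labelled Acadl KO / Acadvl wt were compared with wild type to see how the synthetases differed with the Acadl KO label. Of the 23 cytosolic and partner members 19 rose and the other 4 (Kars, Qars, Wars and Aimp1) did not pass the test. In 19 of the 23 the groups did not overlap, against 35.8% of all genes. Of all genes tested 37.2% passed it, 19.6% higher and 17.6% lower. The median change was 0.54 over the 23 members and -0.02 over all genes. The enzymes for alanine (Aars), tyrosine (Yars), cysteine (Cars), isoleucine (Iars) and threonine (Tars) each rose more than 2-fold on average, and the serine enzyme Sars followed. Of the 16 mitochondrial members 6 rose and the other 10 did not pass the test, with a median change of 0.16. In bulk tissue such as this, fewer or more cells of a type and a different amount of RNA per cell cannot be told apart. The 5 atrial cardiomyocyte markers, all detected in every library, summed to 188.6 to 288.2 CPM in the labelled Acadl KO / Acadvl wt libraries and 308.3 to 427.5 CPM in wild type, and their part in these results was not tested. In Acadl KO / Acadvl Het libraries that sum ran from 151.9 to 1973 CPM, with a median of 353.8 CPM.

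Aars stood at 71.3, 74.8, 91.7 and 81.8 CPM in the 4 wild-type libraries and at 259.9, 219.8, 224.9 and 174.1 CPM in the 4 labelled Acadl KO / Acadvl wt. The lowest of the second group was thus well above the highest of the first. Aars rose by 1.41 (SE 0.12, edgeR adjusted p = 1.39e-07), a fold of 2.66.
Yars stood at 30.9, 29.9, 32.8 and 30.2 CPM in wild type and at 107.2, 76.7, 82.4 and 67.2 CPM in the labelled Acadl KO / Acadvl wt libraries. The groups did not overlap, and replicate 1 was the highest and replicate 4 the lowest of the second group, as for Aars. Yars rose by 1.38 (SE 0.14, edgeR adjusted p = 9.156e-07).
Cars was at 26.1, 23.9, 29.1 and 26.2 CPM in wild type against 88.0, 56.4, 68.6 and 46.9 CPM, again without overlap, and rose by 1.26 (SE 0.18). Iars, a member of the multi-synthetase complex, was at 85.1, 87.9, 95.6 and 84.8 CPM against 253.7, 191.6, 205.3 and 156.7 CPM and rose by 1.14 (SE 0.13). These 2 genes showed the same order of libraries as Aars, with replicate 1 on top.
Tars was at 37.1, 34.2, 37.2 and 34.2 CPM in wild type against 97.2, 77.1, 82.1 and 55.9 CPM and rose by 1.07 (SE 0.12). Sars was at 75.0, 72.8, 79.0 and 76.3 CPM against 194.1, 148.7, 149.2 and 115.5 CPM and rose by 0.96 (SE 0.12). For all 6 genes each labelled Acadl KO / Acadvl wt library exceeded every wild-type library. Without any 1 library of the 24 each of these 6 rises was still called.

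**Figure D1:**
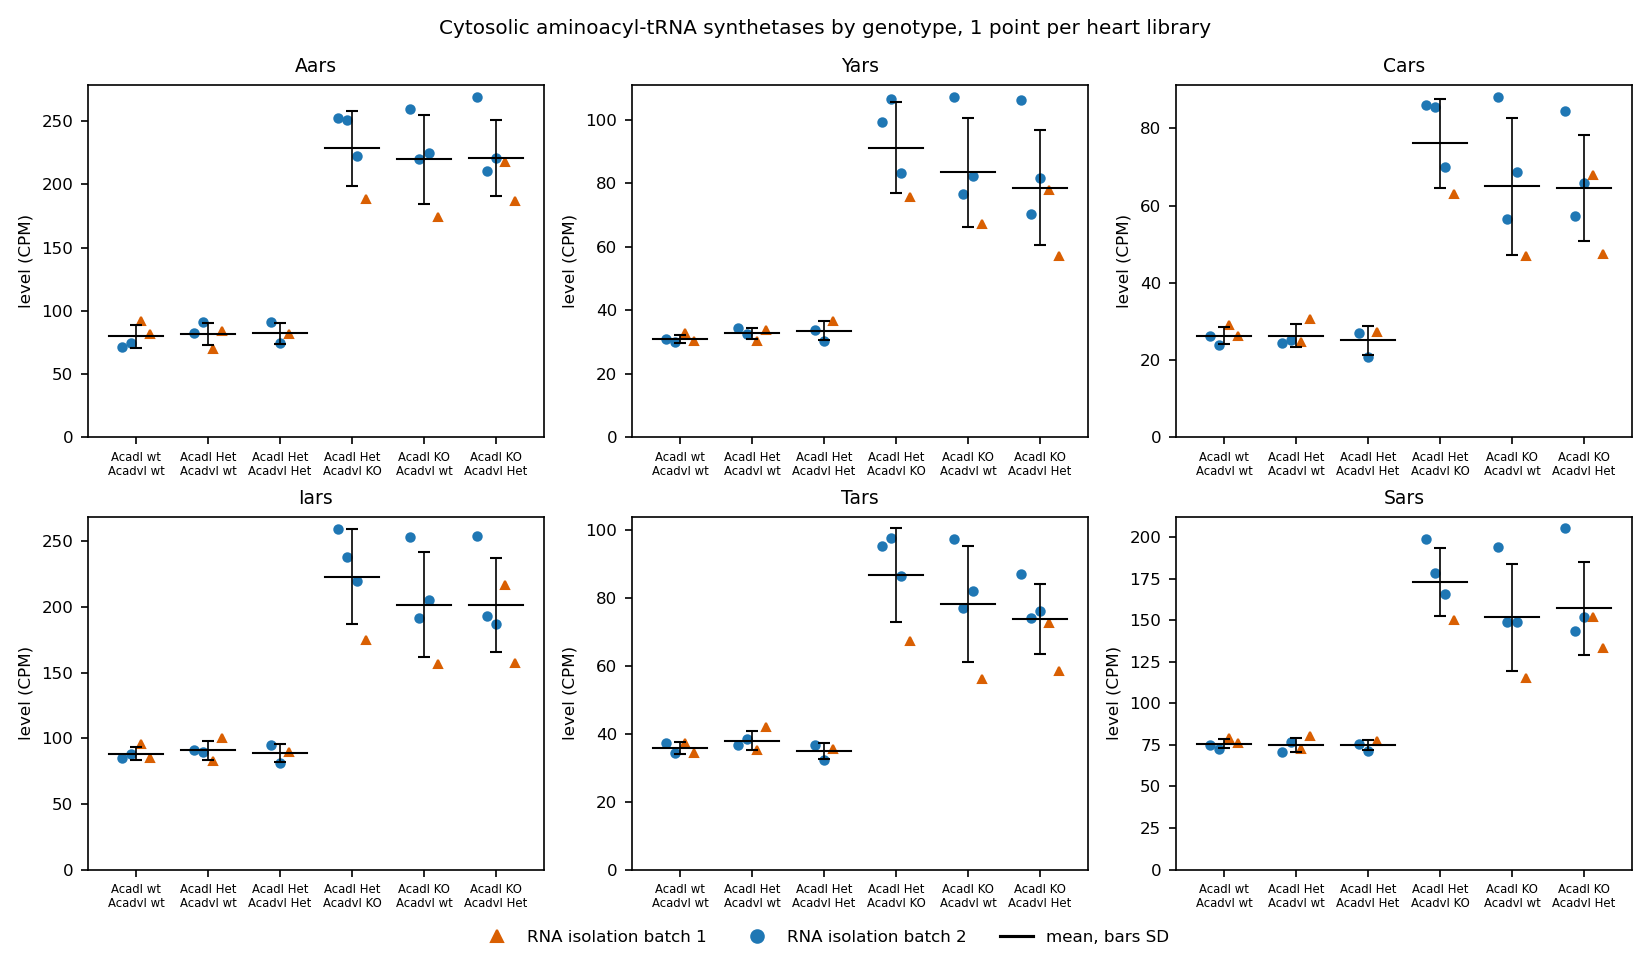
Level in CPM (y axes, starting at 0) of Aars, Yars, Cars, Iars, Tars and Sars in the 6 genotypes (x axes), 1 point per library, triangles for RNA isolation batch 1 and circles for batch 2, with the mean and SD of each genotype. In the 3 genotypes with a KO label each library is above each library of the other 3 genotypes, for example Aars from 174.1 CPM upward against at most 91.7 CPM, and a batch 1 library is the lowest of each KO genotype.

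The rises were larger within batch 2 and smaller within batch 1, which held 1 library labelled Acadl KO / Acadvl wt against 2 of wild type. Aars was at 1.69 within batch 2 and 1.01 within batch 1, Cars at 1.51 and 0.77, and Tars at 1.27 and 0.65. Within batch 1 none of the 23 cytosolic and partner members was called by edgeR in this comparison, where only 0.534% of all genes were, while 18 of 23 were called within batch 2, Dars (0.26) not among them. Of the mitochondrial members that rose, Aars2 (0.34) was not called within batch 2. Aars2 was at 0.35 within batch 1, and Sars2 at 0.41 within batch 2 and 0.57 within batch 1. Rars2, Mars2 and Yars2 were larger within batch 2. Within each KO genotype 1 library was lowest for most cytosolic and partner members that rose. It was Acadl KO / Acadvl wt replicate 4 for 16 of 19 members, Acadl Het / Acadvl KO replicate 4 for 15 of 15, and Acadl KO / Acadvl Het replicate 5 for 15 of 19, and all 3 were of batch 1. Replicate 1 of both genotypes labelled Acadl KO was the highest, for 15 of 19 and 16 of 19 members. The 7 mitochondrial members that rose for the Acadl KO label against Acadl Het differed in this. Among Acadl KO / Acadvl Het libraries replicate 2, of batch 2, was lowest for 5 of them and replicate 4, of batch 1, highest for 5. The part of the batch in these differences within a genotype was not tested.

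Members of the multi-synthetase complex were next described by role, a split made with the results known and not tested. The complex joins the enzymes Dars, Eprs, Iars, Kars, Lars, Mars, Qars and Rars with the scaffolds Aimp1, Aimp2 and Eef1e1. Of these 11 genes 8 rose against wild type, with a median change of 0.43. Of the 12 cytosolic enzymes outside the complex 11 rose, with a median of 0.92. Of all genes tested 19.6% rose. Within the complex the changes ran from -0.09 for Qars to 1.14 for Iars. Mars, the methionyl enzyme, rose by 0.93 (SE 0.17), Eprs, which charges both glutamate and proline tRNA, by 0.81 (SE 0.16), Lars by 0.60 (SE 0.15) and Rars by 0.49 (SE 0.07). Dars, the aspartyl enzyme, rose by only 0.26 (SE 0.08) and its rise was not called without the libraries above 10 CPM of Alb (0.21). Of the scaffolds, Aimp2 rose by 0.43 (SE 0.08) and Eef1e1 by 0.41 (SE 0.12), the latter also not called without those libraries (0.35). Outside the complex, Nars rose by 0.94 (SE 0.11), Gars by 0.90 (SE 0.14), Vars by 0.54 (SE 0.09), and the subunits of the phenylalanyl enzyme, Farsa and Farsb, by 0.39 each (SE 0.07 and 0.09). Hars rose by 0.28 (SE 0.08), and was at 0.24 and not called without the libraries above 10 CPM of Alb. In this comparison that setting left out Acadl KO / Acadvl wt replicates 2 and 3. It called 24.4% of all genes, against 37.2% with every library, and why calls were lost was not tested. Some reads of Mars, Yars, Farsb, Aimp2 and Iars2 cannot be told apart from those of a gene on the other strand whose exons overlap theirs (Ddit3 over 68 bases, C77080 over 30, Sgpp2 over 265, Eif2ak1 over 14 and Rab3gap2 over 85).

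Kars, Wars, Aimp1 and Qars were the members that did not pass the test against wild type. Kars was at 114.7, 121.7, 122.1 and 120.1 CPM in wild type and at 126.0, 116.2, 120.5 and 118.4 CPM in labelled Acadl KO / Acadvl wt hearts, a change of 0.01 (95% confidence interval -0.11 to 0.13). The ranges of the groups overlapped. Wars, the tryptophanyl enzyme, was at 59.8, 62.8, 61.5 and 61.2 CPM against 60.5, 55.4, 57.2 and 59.7 CPM, a change of -0.08 (interval -0.26 to 0.10). Aimp1 was at 59.4, 53.1, 55.9 and 56.2 CPM against 59.6, 60.1, 55.7 and 51.97 CPM, a change of 0.02 (interval -0.15 to 0.18). The intervals for these 3 genes lie below the rise of 0.26 for Dars, the smallest that was called among the 23. They were not called in any of the comparisons of a KO label with its controls.
Qars, the glutaminyl enzyme, was lower for the Acadl KO label against Acadl Het. It was at 77.8, 73.9, 82.7 and 84.0 CPM in wild type, and at 72.6 to 75.7 CPM in the 4 labelled Acadl KO / Acadvl wt libraries, a change of -0.09 (interval -0.20 to 0.02) that was not called. Against the 7 Acadl Het libraries without a KO, at 75.9 to 85.5 CPM, the 9 libraries labelled Acadl KO, at 72.3 to 77.5 CPM, differed by -0.11 (SE 0.04, adjusted p from edgeR = 0.01566). The ranges overlapped. The fall was not called without Acadl KO / Acadvl Het replicate 5 (-0.09), with no filter on low counts (-0.11), within batch 2 (-0.09) or within batch 1 (-0.15). It was also not called without the libraries above 10 CPM of Alb (-0.12), where the controls were Acadl Het / Acadvl wt alone.

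**Figure D2:**
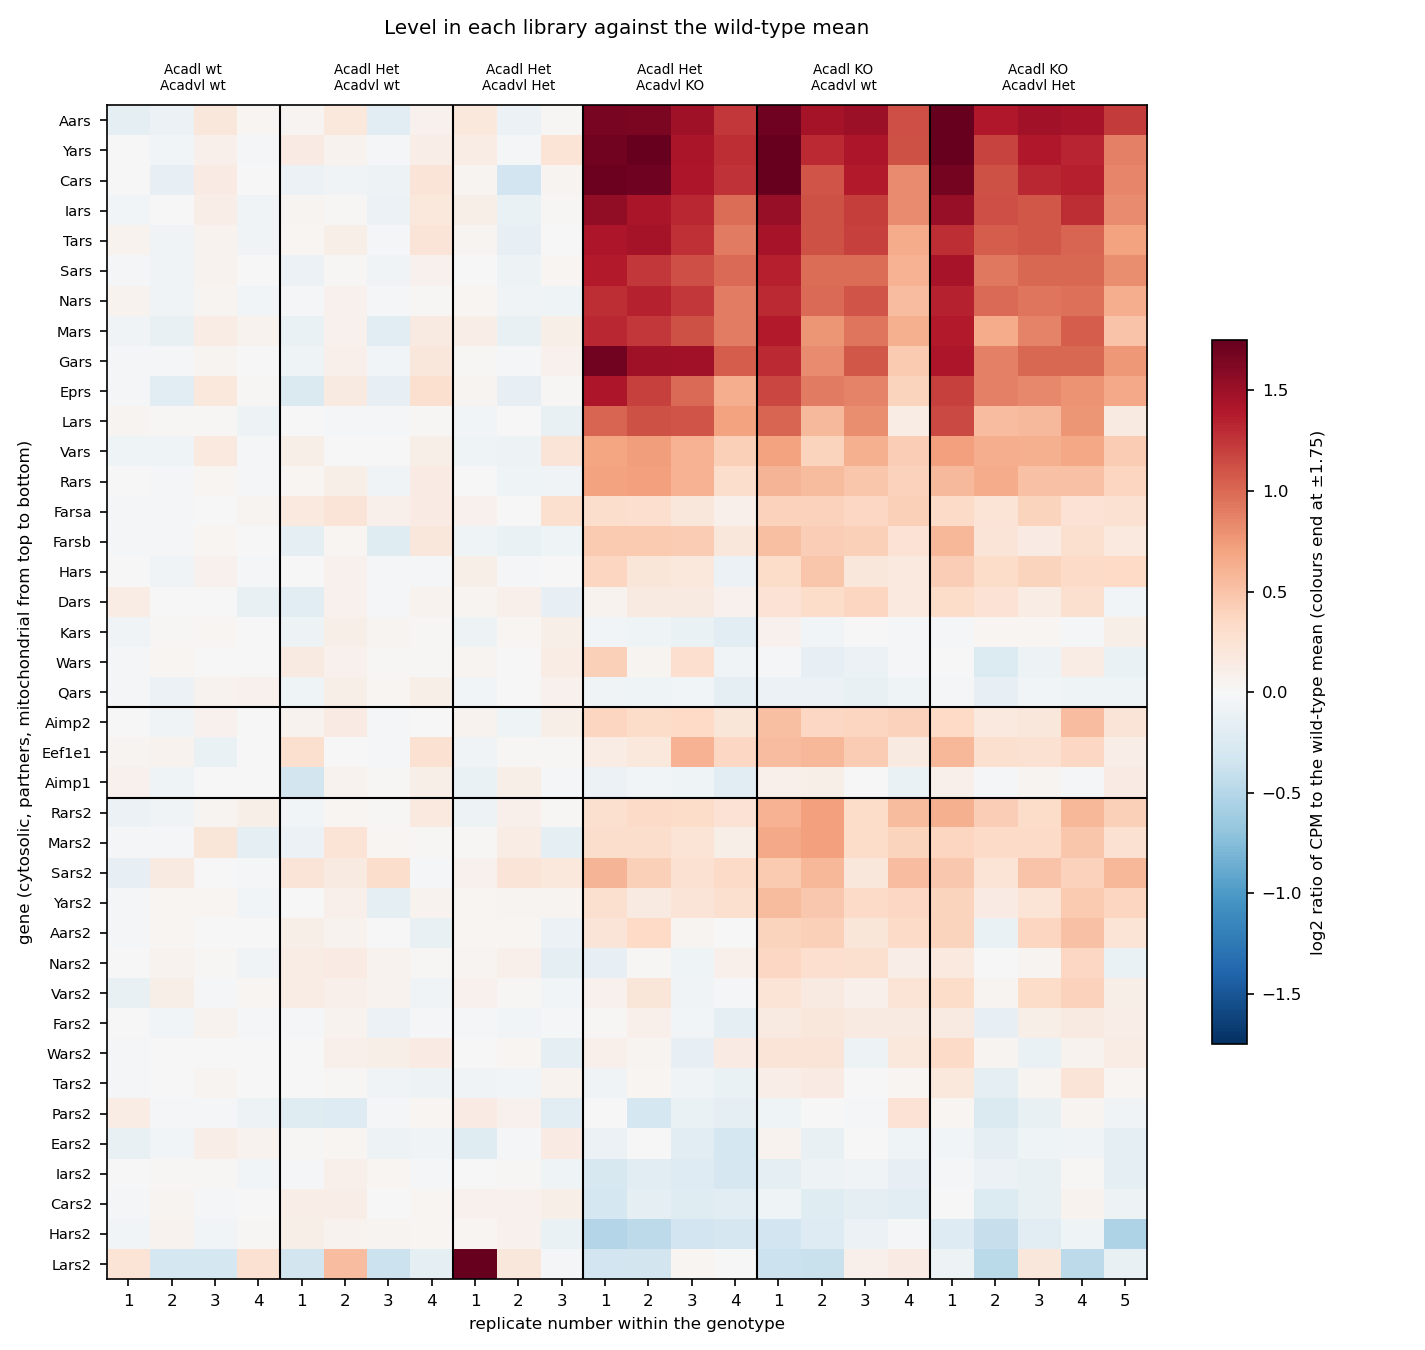
Log2 ratio of the CPM of each member (rows, cytosolic, partners and mitochondrial from top to bottom) to its mean in wild type, for each library (columns, by genotype and replicate number). Cytosolic rows from Aars to Rars are red in each of the 13 libraries with a KO label, most mitochondrial rows stay near 0, and Lars2 is dark in a single library, Acadl Het / Acadvl Het replicate 1.

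Counted library by library, 17 to 21 of the 23 cytosolic and partner members were above the highest wild-type value in each of the 13 libraries with a KO label. In the 7 Acadl Het libraries without a KO that number ran from 2 to 14. The library with 14 was Acadl Het / Acadvl wt replicate 4, whose median ratio to the wild-type mean was 0.11 on the log2 scale, against 0.38 to 0.73 in libraries with a KO label. The 13 libraries with a KO label and these 7 did not overlap in either measure. Wild-type libraries set the limit and cannot exceed it, so they are left out of this count. The share of all genes above the limit was not counted per library.

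Of the 16 mitochondrial members, 6 rose in this comparison and none fell. Of all genes 37.2% were called, 19.6% higher and 17.6% lower, so the called share of these members was near that of all genes. In 9 of the 16 the groups did not overlap, against 35.8% of all genes. The arginyl enzyme Rars2 was at 17.2, 17.7, 19.2 and 19.9 CPM in wild type and at 28.2, 30.4, 23.2 and 27.1 CPM in labelled Acadl KO / Acadvl wt hearts, and rose by 0.57 (SE 0.08, edgeR adjusted p = 3.062e-05). The methionyl enzyme Mars2 was at 13.6, 13.6, 16.2 and 12.5 CPM against 22.1, 23.1, 17.5 and 18.3 CPM and rose by 0.51 (SE 0.10). Neither gene overlapped between the groups.
The seryl enzyme Sars2 was at 11.1, 13.6, 12.3 and 11.9 CPM against 16.8, 18.3, 14.1 and 17.8 CPM and rose by 0.46 (SE 0.10). The tyrosyl enzyme Yars2 was at 21.0, 21.8, 21.7 and 20.5 CPM against 31.2, 29.5, 26.7 and 27.2 CPM and rose by 0.43 (SE 0.07). The groups were again apart, and here replicate 3, not replicate 4, was the lowest of the labelled Acadl KO / Acadvl wt libraries, for 5 of the 6 mitochondrial members that rose.
Aars2 rose by 0.33 (SE 0.10) and Nars2 by 0.25 (SE 0.09). The call for Nars2 was lost without Acadl KO / Acadvl wt replicate 1 (0.23) or wild-type replicate 1 or 4 (0.24 each), and without the libraries above 10 CPM of Alb (0.23). The other 10 mitochondrial members lay between -0.17 for Lars2 and 0.17 for Vars2. Cars2 at -0.16, Hars2 at -0.17 and Iars2 at -0.12 were below 0 without passing the test.

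Cytosolic and mitochondrial enzymes for the same amino acid were set side by side for the 13 amino acids with 1 cytosolic gene of its own and 1 mitochondrial gene in the list, which leaves out phenylalanine (subunits Farsa and Farsb) and glutamate and proline (both charged by Eprs). The cytosolic change was the larger in 11 of the 13 pairs, with a median difference of 0.69. In 6 pairs both enzymes rose (alanine, methionine, asparagine, arginine, serine and tyrosine). The widest gap was for cysteine, with Cars at 1.26 and Cars2 at -0.16, then isoleucine, with Iars at 1.14 and Iars2 at -0.12. Arginine was reversed by a small margin, with Rars at 0.49 and Rars2 at 0.57, and tryptophan too, with Wars at -0.08 and Wars2 at 0.15. These differences within a pair were not tested.

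**Figure D3:**
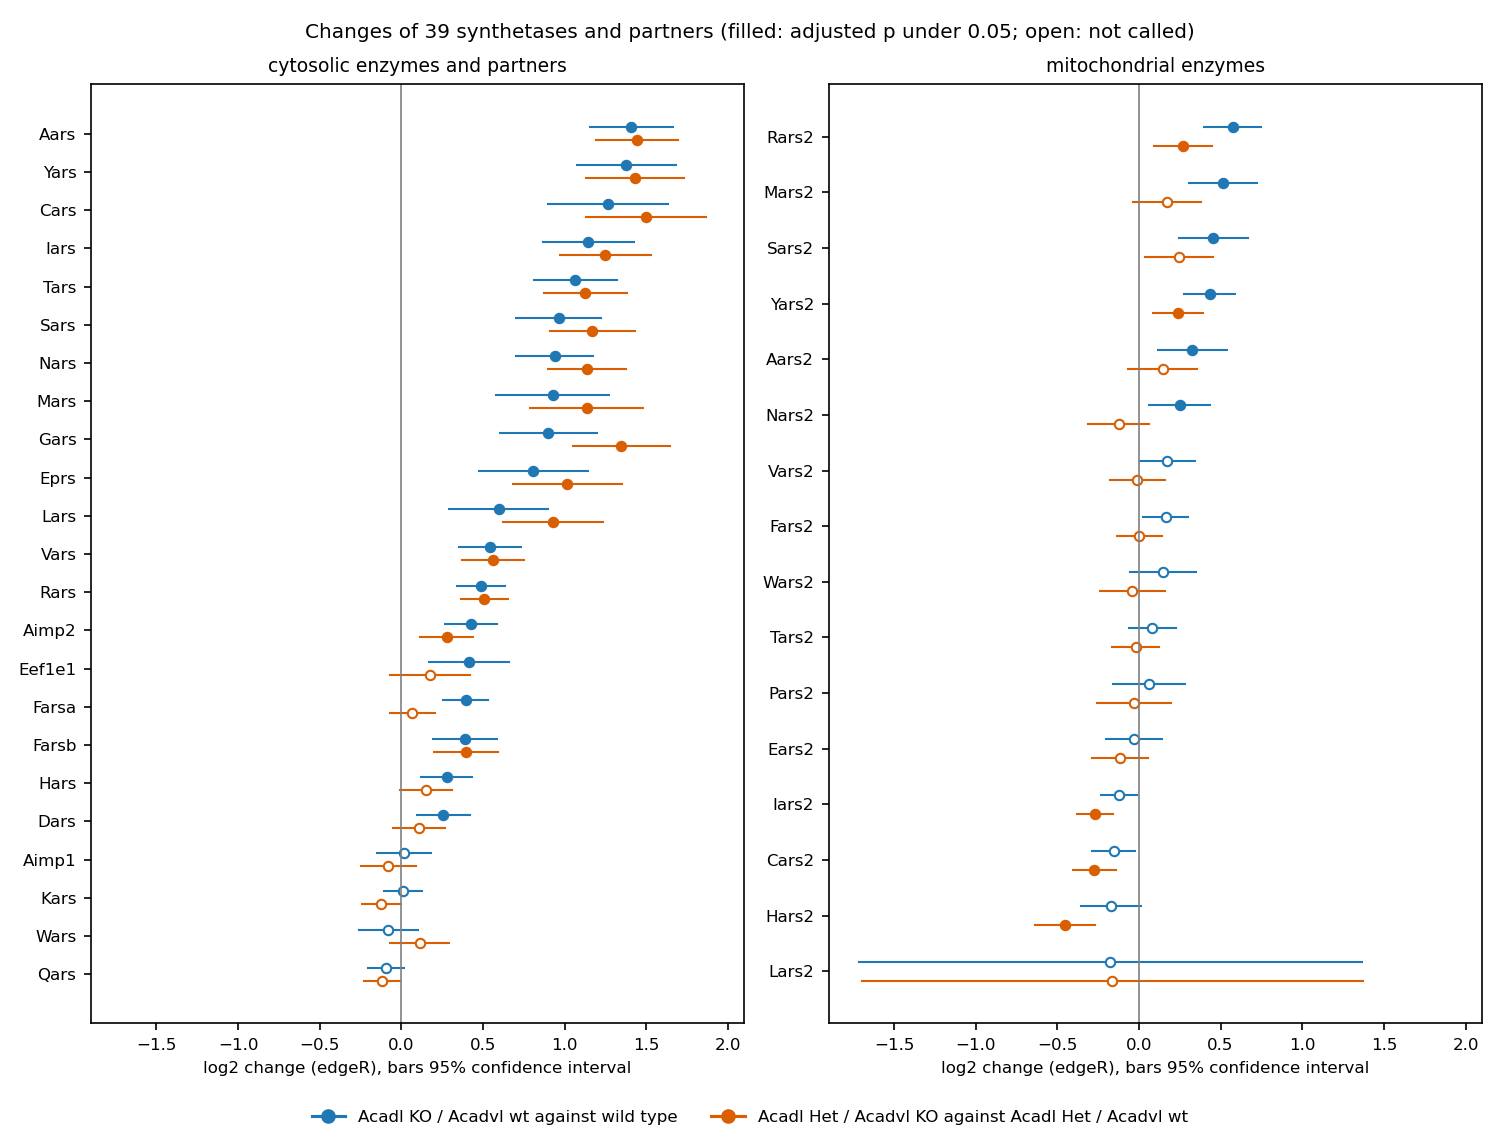
Log2 change from edgeR (x axis) with its 95% confidence interval for each member (y axis), for Acadl KO / Acadvl wt against wild type (blue) and Acadl Het / Acadvl KO against Acadl Het / Acadvl wt (orange), filled where the adjusted p was under 0.05. Cytosolic members (left) are filled from Aars at 1.41 down to Farsb in both comparisons, except Farsa and Eef1e1 in the second, while mitochondrial members (right) lie between -0.45 and 0.57, Lars2 with intervals beyond ±1.

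A further comparison set all 9 libraries labelled Acadl KO, 4 of which entered the one above, against the 7 with Acadl Het and no KO (4 with Acadvl wt and 3 with Acadvl Het). Of the 23 cytosolic and partner members 19 rose and Qars fell, against 54.7% of all genes called, 26.7% higher and 27.9% lower. The 19 were those that rose against wild type. Aars was at 186.8, 210.3, 217.9, 220.7 and 269.0 CPM in the 5 Acadl KO / Acadvl Het libraries and at 69.8 to 90.9 CPM in the 7 controls, and rose by 1.41 (SE 0.09, edgeR adjusted p = 2.897e-10). Both genotypes labelled Acadl KO overlapped each other for Aars, and neither reached the controls. Cars rose by 1.32 (SE 0.13), Yars by 1.26 (SE 0.10), Iars by 1.15 (SE 0.10), Tars and Sars by 1.03 each (SE 0.09 each). Of the 23 members, 15 did not overlap between the 9 and the 7 libraries, against 18.3% of all genes. Of the 16 mitochondrial members 7 rose and 4 fell. Rars2 (0.50, SE 0.06), Mars2 (0.42, SE 0.07), Yars2 (0.36, SE 0.05), Aars2 (0.31, SE 0.07), Sars2 (0.28, SE 0.07), Vars2 (0.18, SE 0.06) and Fars2 (0.16, SE 0.05) rose. Hars2 (-0.26, SE 0.06), Cars2 (-0.19, SE 0.04), Iars2 (-0.10, SE 0.04) and Lars2 fell, the last only with 1 control library included. Without the libraries above 10 CPM of Alb the calls of Eef1e1 (0.20), Fars2 (0.15) and Vars2 (0.18) were lost. That setting left out every Acadl Het / Acadvl Het library, so its controls were Acadl Het / Acadvl wt alone. It was thus another contrast, no longer balanced over Acadvl wt and Acadvl Het. The small fall of Iars2 was not called without any 1 of 8 of the 24 libraries, where it was at -0.09 to -0.07: Acadl Het / Acadvl Het replicates 1 and 2, Acadl Het / Acadvl wt replicates 2 and 3, Acadl KO / Acadvl wt replicates 1 and 2, Acadl KO / Acadvl Het replicate 5 and wild-type replicate 2. Iars2 was also not called with no filter (-0.09), only the genotypes compared (-0.10), or within batch 2 (-0.11). Within batch 2 the calls of Aars2 (0.23), Fars2 (0.12), Sars2 (0.25) and Vars2 (0.13) were lost as well.

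Acadl Het / Acadvl KO hearts were compared with Acadl Het / Acadvl wt hearts to see how the synthetases differed with the Acadvl KO label. Of the 23 cytosolic and partner members 15 rose and the other 8 did not pass the test, with a median change of 0.56. In 14 of the 23 the groups did not overlap, against 23.5% of all genes, while 24.4% of all genes were called, 12.9% higher and 11.5% lower. All 15 were among the 19 that rose in both comparisons of the Acadl KO label. The remaining 4 of those 19 were Dars (0.11), Eef1e1 (0.17), Farsa (0.07) and Hars (0.15), none of which passed the test here. Hars was called, at 0.24, without Acadl Het / Acadvl KO replicate 4.
Cars was at 86.1, 85.5, 69.9 and 63.0 CPM in Acadl Het / Acadvl KO libraries and at 24.4, 25.2, 24.7 and 30.7 CPM in Acadl Het / Acadvl wt libraries, and rose by 1.499 (SE 0.18, edgeR adjusted p = 6.876e-06). Aars was at 252.3, 250.5, 222.4 and 188.5 CPM against 82.6, 90.8, 69.8 and 84.3 CPM and rose by 1.44 (SE 0.12). Yars rose by 1.43 (SE 0.14), Gars by 1.35 (SE 0.14), Iars by 1.25 (SE 0.13), Sars by 1.17 (SE 0.12), Nars and Mars by 1.14 each (SE 0.11 and 0.17), Tars by 1.13 (SE 0.12), Eprs by 1.02 (SE 0.16) and Lars by 0.93 (SE 0.15). In each of the genes with values for every library the 2 groups were apart, and Acadl Het / Acadvl KO replicate 4 was the lowest of its group.
Of the 16 mitochondrial members 2 rose and 3 fell. Rars2 rose by 0.27 (SE 0.08) and Yars2 by 0.24 (SE 0.07), and these calls were lost without Acadl Het / Acadvl wt replicate 2 (0.27) or Acadl Het / Acadvl KO replicate 2 (0.25) for Rars2 and without Acadl Het / Acadvl wt replicate 3 (0.20) for Yars2. Both were also lost with only the genotypes compared (0.27 for Rars2, 0.23 for Yars2), within batch 2 (0.33 and 0.18) and within batch 1 (0.17 and 0.34). With only the genotypes compared the calls of Farsb (0.40) and Aimp2 (0.24) were lost too, that of Aimp2 also within batch 2 (0.25). Hars2 was lower at -0.45 (SE 0.09, adjusted p from edgeR = 0.0008784), and Cars2 and Iars2 at -0.27 each (SE 0.06 and 0.05). Iars2 was at 121.5, 129.4, 126.8 and 120.1 CPM in Acadl Het / Acadvl KO libraries and at 144.4, 156.7, 151.1 and 144.9 CPM in their controls, without overlap. In all 13 pairs of enzymes for 1 amino acid the cytosolic change was the larger, by a median of 1.09.

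Hearts labelled Acadl KO / Acadvl wt were compared directly with Acadl Het / Acadvl KO hearts, which differ in both genes. Of the 23 cytosolic and partner members 1 fell and the others did not pass the test, and 4.43% of all genes were called, 1.77% higher and 2.66% lower. In 3 of the 23 the groups did not overlap, against 8.05% of all genes. The atrial markers did not overlap either, at 188.6 to 288.2 CPM against 455.3 to 610.3 CPM, and their part was not tested. That member was Gars, the glycyl enzyme, described here after its values were seen. Gars was at 182.4, 129.9, 157.0 and 101.3 CPM in the labelled Acadl KO / Acadvl wt libraries, at 237.8, 206.2, 203.8 and 153.3 CPM in Acadl Het / Acadvl KO libraries and at 71.8 to 75.8 CPM in wild type. The KO genotypes overlapped each other and neither overlapped wild type. The difference between them was -0.49 (SE 0.14, edgeR adjusted p = 0.04683), close to the threshold. It was lost without any 1 of 9 of the 24 libraries (-0.51 to -0.40): Acadl Het / Acadvl KO replicates 1, 2 and 3, Acadl KO / Acadvl wt replicates 2 and 4, Acadl KO / Acadvl Het replicates 3 and 4, Acadl Het / Acadvl wt replicate 2 and Acadl Het / Acadvl Het replicate 1. It was also lost with no filter (-0.48), no batch term (-0.49), only the genotypes compared (-0.51), within batch 2 (-0.46), within batch 1 (-0.60) and without the libraries above 10 CPM of Alb (-0.47). Aars, at -0.06 (interval -0.30 to 0.18), Yars, at -0.13 (interval -0.42 to 0.16), and Cars, at -0.23 (interval -0.58 to 0.12), were not called. The median over the 23 members was -0.08. edgeR called 0 of the 16 mitochondrial members, with 7 at an unadjusted p under 0.05, against 3460 of the 15804 genes tested. DESeq2 called 2 of the 16, against 7.75% of all genes, and limma voom called 0. In 5 of the 16 the groups did not overlap, against 8.05% of all genes. All 16 were above 0, from 0.04 for Lars2 to 0.29 for Mars2, with a median of 0.16 against 0.01 over all genes.

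The remaining comparisons concerned the Het labels. Between Acadl Het / Acadvl wt and wild-type hearts edgeR, DESeq2 and limma voom each called 0 of the 39 members, with 1 cytosolic or partner member and 0 mitochondrial members at an unadjusted p under 0.05. Changes ran from -0.02 to 0.16 over the cytosolic and partner members, and in 1 of the 39 the groups did not overlap, against 3.28% of all genes. Between the 2 genotypes labelled Acadl KO, with Acadvl Het against Acadvl wt, all 3 tools again called 0 members, with 0 at an unadjusted p under 0.05 and changes of -0.16 to 0.11 over all 39, and in 0 of the 39 the groups did not overlap, against 1.94% of all genes. Aars, for example, was at 221 ± 30.0 CPM (SD, n = 5) with Acadvl Het and at 219.7 CPM on average with Acadvl wt. Between Acadl Het / Acadvl Het and Acadl Het / Acadvl wt hearts edgeR and limma voom called 0 members and DESeq2 called 1, Lars2, which was also the only member at an unadjusted p under 0.05. In 0 of the 39 the groups did not overlap, against 3.83% of all genes. The 10 hepatocyte markers summed to 119.4 to 448 CPM against 61.01 to 80.55 CPM there, and their part was not tested. The interaction of the Acadl KO label with Acadvl Het gave the same, with 0 members called by edgeR and limma voom, and Lars2 called by DESeq2 and alone at an unadjusted p under 0.05. Over all genes edgeR called 0, 0, 0.00633% and 0% in these 4 comparisons, taken in the order given.

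Hars and Hars2, singled out after their values were seen, start 4 bases apart on opposite strands of chromosome 18 (Hars 36766528 to 36783205 on the minus strand, Hars2 36783209 to 36792560 on the plus strand, mm10). They encode the cytosolic and the mitochondrial histidyl enzyme, and for labelled Acadl KO against Acadl Het Hars rose (0.31, SE 0.05) and Hars2 fell (-0.26). Hars was at 34.02 to 37.4 CPM in wild type, at 40.0 to 49.8 CPM in the labelled Acadl KO / Acadvl wt libraries, at 44.3 to 47.6 CPM with Acadvl Het added and at 33.1 to 45.9 CPM in Acadl Het / Acadvl KO libraries. Hars2 was at 27.4 to 29.7 CPM in wild type and at 22.4 to 27.6, 19.4 to 27.0 and 20.0 to 23.2 CPM in the same 3 genotypes. The ratio of Hars to Hars2 was 1.15 to 1.36 in the 11 libraries with no KO label and 1.43 to 2.33 in the 13 with one, without overlap. The library with the lowest ratio among the 13 was Acadl Het / Acadvl KO replicate 4. The ratio was not tested.

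**Figure D4:**
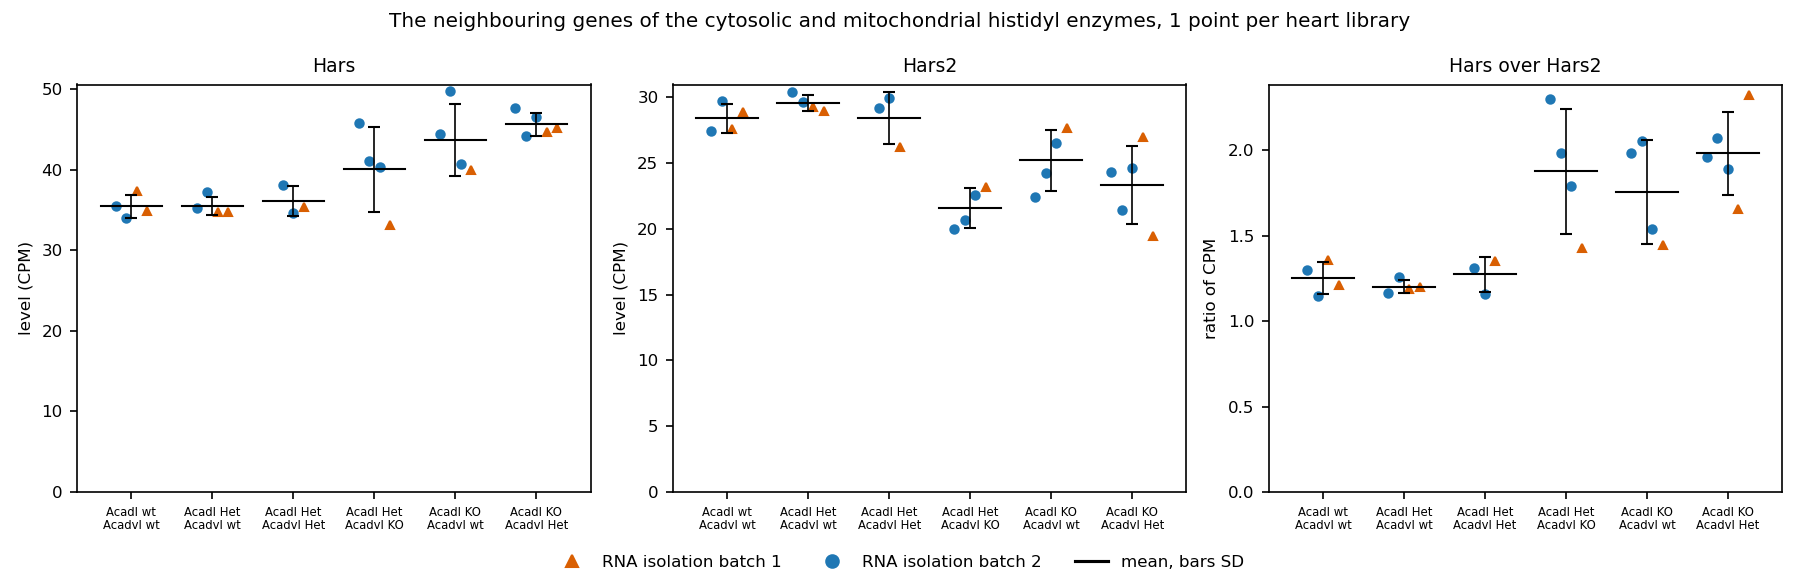
Level in CPM of Hars (left) and Hars2 (middle) and the ratio of both (right), y axes starting at 0, in the 6 genotypes, 1 point per library with the mean and SD, triangles for RNA isolation batch 1 and circles for batch 2. The ratio stays at or below 1.36 in genotypes with no KO label and is at least 1.43 in the 3 others.

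Lars2 was checked against Rn45s. It was at 19580 CPM in Acadl Het / Acadvl Het replicate 1 and at 259.8 to 520.1 CPM (median 329.3) in the other 23 libraries, 59.5 times their median. Rn45s was at 207300 CPM in that library and at 2428 to 5505 CPM in the others, 58.1 times their median. The library that was high for one was thus high for the other by nearly the same factor.
Lars2 had 9.45 counts per 100 counts of Rn45s in that library, and 6.84 to 11.8 per 100 (median 9.76) over all 24, a range of 1.73-fold while Rn45s itself ranged 85.4-fold. Other RNAs that carry no poly(A) tail were also high there: Rmrp had 7894 counts against 3 to 25 in the others, and Rpph1 6827 against 5 to 24. Of the 38 other members 34 lay inside the range of the 10 remaining libraries with no KO label, and the log2 ratio to their mean ran from -0.21 to 0.20. The share of all genes inside that range was not counted, so the 34 do not show whether these members were affected.
Without this library the fall of Lars2 in labelled Acadl KO against Acadl Het, -2.20 (SE 0.54, edgeR adjusted p = 0.001907), was -0.17 and not called. Within batch 1, which does not hold it, Lars2 was at 0.08. The change of Lars2 between Acadl Het / Acadvl Het and Acadl Het / Acadvl wt was 4.13 (SE 0.87, edgeR adjusted p = 0.08873), that of Rn45s 4.15 (SE 0.88), and that of Lars2 without the library 0.12. Whether reads of ribosomal RNA are counted for Lars2 was not tested, and the level of Lars2 in any library is to be read with this tie.

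**Figure D5:**
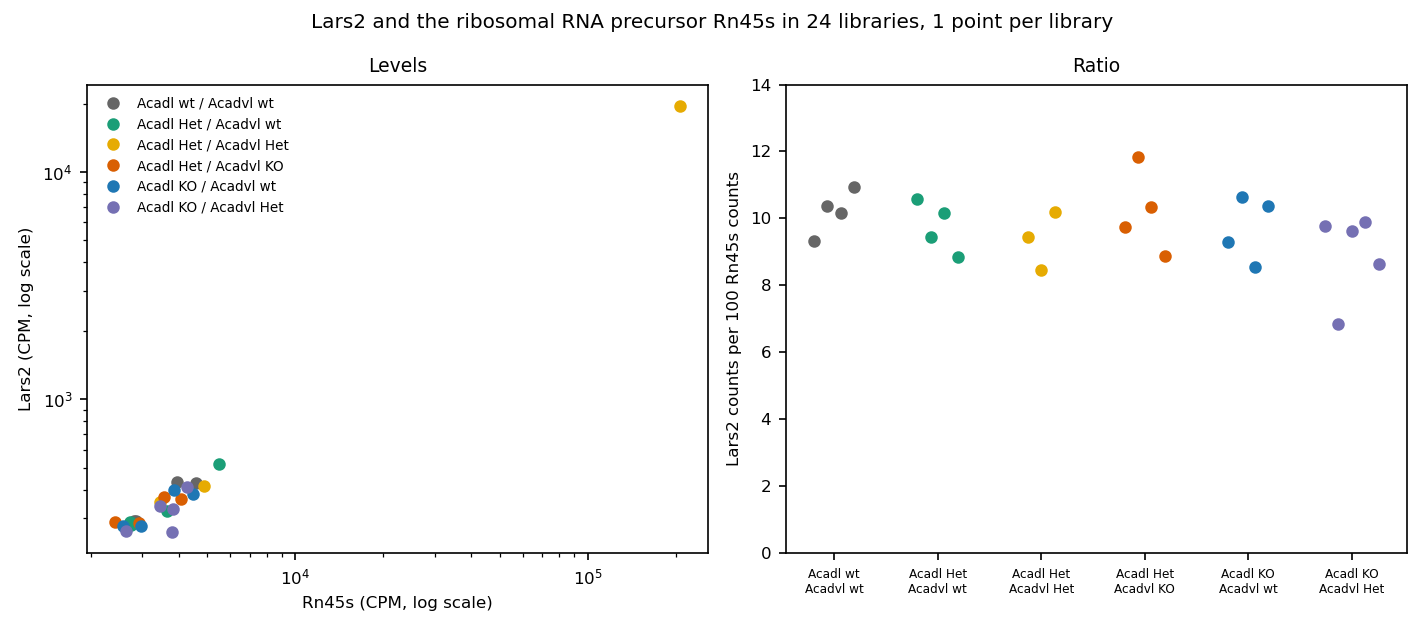
Left, Lars2 against Rn45s in CPM (both axes logarithmic), 1 point per library coloured by genotype; right, Lars2 counts per 100 Rn45s counts by genotype on an axis from 0. A single Acadl Het / Acadvl Het library stands at 19580 CPM of Lars2 and 207300 CPM of Rn45s, yet its ratio of 9.45 lies among those of the other 23 libraries.

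Other genes that charge, deliver or watch over tRNA were taken from a list of 25. Against wild type 7 rose and 2 fell in labelled Acadl KO / Acadvl wt hearts, with a median change of 0.17, 10 rose and 4 fell for the Acadl KO label against Acadl Het, and 5 rose and 4 fell for the Acadvl KO label. Over all genes 37.2%, 54.7% and 24.4% were called in these comparisons, so in the first and second the called share of the list was near that of all genes. Qrsl1, a subunit of the enzyme that makes mitochondrial glutaminyl-tRNA, rose by 1.02 (SE 0.14) against wild type, while its partner subunits Gatb and Gatc were at -0.16 and -0.15 and not called. Xpot, which exports tRNA from the nucleus, rose by 0.83 (SE 0.14), Trnt1, which adds the CCA end of tRNA, by 0.69 (SE 0.11), and Gcn1l1, a partner of GCN2, by 0.59 (SE 0.10). Qrsl1 (0.71, SE 0.14), Xpot (1.05, SE 0.14), Trnt1 (0.49, SE 0.11) and Gcn1l1 (0.50, SE 0.10) rose with the Acadvl KO label as well. Gatb fell there (-0.30, SE 0.07). Mtfmt, which formylates the initiator tRNA of mitochondria, was lower against wild type at -0.47 (SE 0.13) and with the Acadvl KO label at -0.41 (SE 0.13).

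Of a list of 27 targets of the amino acid response, written with the series title and earlier results known and so no independent evidence of direction, 19 rose and 1 fell against wild type (median 1.32), and 23 rose with the Acadvl KO label (median 1.97). Over all genes 19.6% and 12.9% rose in these comparisons. Asns, which makes asparagine, was at 2.13, 2.05, 1.22 and 1.44 CPM in wild type and at 48.7, 21.2, 26.6 and 8.74 CPM in labelled Acadl KO / Acadvl wt libraries. Replicate 1 was the highest and replicate 4 the lowest, as for Aars, Yars and Cars. Asns rose by 3.83 (SE 0.44) there and by 3.46 (SE 0.40) with the Acadvl KO label. The 2 changes have unlike baselines, since Acadl Het / Acadvl wt controls were at 4.39 to 7.055 CPM, above wild type. Acadl Het / Acadvl KO libraries were at 45.39 to 79.32 CPM. Trib3 rose by 3.46 (SE 0.55) and 4.61 (SE 0.56), Atf3 by 3.08 (SE 0.55) and 2.14 (SE 0.53), and Mthfd2 by 2.78 (SE 0.40) and 4.24 (SE 0.41). In the direct comparison of both KO labels 6 of the 27 were lower in labelled Acadl KO / Acadvl wt hearts, among them Asns (-1.38, SE 0.35) and Mthfd2 (-1.39, SE 0.34), where Gars was the only synthetase called and 2.66% of all genes were lower.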

How the data were processed

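Values are read counts per gene, deposited by the authors as 1 file per library. Per the file headers, featureCounts 1.5.2 counted single-end reads over exons of mm10 genes, primary alignments only, without strand, and reads over more than 1 gene went to all of them. STAR 2.5.1b and featureCounts 1.5.3 are listed in the submitters' processing notes. Because strand was ignored, antisense partners share reads. Per the labels, libraries were made by polyA capture.

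Counts were analysed with edgeR 4.0.16 in R 4.3.3. filterByExpr on genotype left 15804 genes. Libraries were scaled by TMM, and 1 quasi-likelihood fit over all 24 libraries had genotype and RNA isolation batch as terms. Tests were two-sided and Benjamini-Hochberg adjusted over all genes (threshold 0.05). The 8 comparisons are those in the results. SEs come from the F statistic. Alternatives used DESeq2 1.42.0 (tests and size factors), limma 3.58.1 voom, no filter, Rn45s left out before scaling, no batch term, only the genotypes compared, each batch alone, each library left out and, chosen after seeing the data, the libraries above 10 CPM of Alb left out. Tests were tested on simulated counts. No library was a copy of another: chi-square over degrees of freedom was 14.9 or more for each pair within a genotype.

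The members, lists and naming rule were chosen with earlier results of these data known. Values in every library are given for the 6 cytosolic or partner members with the largest change against wild type, the 4 mitochondrial members called with the largest change (Lars2 left out), members called against the majority, cytosolic and partner members not called for any KO label, and Lars2 with Rn45s. From the other lists up to 4 called genes with the largest change are named. Gars, Hars, Hars2, Iars2, Gatb, Gatc and Mtfmt were added after their values were seen. The scaffold Aimp1, which the rule's wording for enzymes does not cover, was treated like them. A further match of the searched motif is not reported here.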

Additional observations from a re-analysis of the deposited data

Results flagged for a closer look

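In 195 sets of 1 member in 1 genotype of 4 or 5 libraries, 7 held a library far from the others of its genotype by Dixon's test, which chance would flag in about 1 of 20 sets. Cars was at 30.69 CPM in Acadl Het / Acadvl wt replicate 4, against 24.41 to 25.24 CPM in the others. Farsb was at 52.84 CPM in Acadl Het / Acadvl KO replicate 4, with the others at 62.78 to 63.17 CPM, and at 68.7 CPM in Acadl KO / Acadvl Het replicate 1, with the others at 50.83 to 55.87 CPM. Sars was at 205.5 CPM in that same library, with the others at 133 to 152.1 CPM. Fars2 was at 55.65 CPM in Acadl KO / Acadvl Het replicate 2, with the others at 66.14 to 68.7 CPM. Wars2 was at 8.097 CPM in Acadl KO / Acadvl wt replicate 3, with the others at 9.874 to 10.1 CPM, and at 8.482 CPM in wild-type replicate 1, with the others at 8.681 to 8.722 CPM. Genotypes of 3 libraries, and with them the Lars2 value of Acadl Het / Acadvl Het replicate 1, were not tested this way.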

How the results depend on the processing

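Counts of called members were compared with the 19 cytosolic or partner and 6 mitochondrial members for labelled Acadl KO / Acadvl wt against wild type, 20 and 11 for Acadl KO against Acadl Het, 15 and 5 for the Acadvl KO label, 1 and 0 for labelled Acadl KO / Acadvl wt against Acadl Het / Acadvl KO, and 0 in the other comparisons. In the main fit 37.2%, 54.7%, 24.4% and 4.43% of all genes were called in the first 4 of these comparisons. Batch 1 has 9 libraries, with 1 each of Acadl KO / Acadvl wt, Acadl Het / Acadvl Het and Acadl Het / Acadvl KO. Counts within it are therefore not given here. Both the members and all genes were called less often within it in the first 3 comparisons. Within batch 2 the mitochondrial counts were 6 for Acadl KO against Acadl Het and 3 for the Acadvl KO label, which was also 3 with only the genotypes compared. Of all genes 45% and 16.7% were called within batch 2 in these comparisons. With only the genotypes compared, 13.2% were called for the Acadvl KO label. The single call between the KO labels was 0 with no filter, no batch term, only the genotypes compared, batch 2 alone or the libraries above 10 CPM of Alb left out, 2 with DESeq2, and 0 to 2 with 1 library left out. DESeq2 called 7.75% of all genes there. The mitochondrial count there was 2 with DESeq2 and 0 to 2 with 1 library left out. For Acadl Het / Acadvl Het against Acadl Het / Acadvl wt it was 1 with DESeq2 or no batch term and 0 to 1 with 1 library left out, and for the interaction 1 with DESeq2 and 0 to 1 with 1 library left out. Direction was compared for values past the threshold in either fit, and 1 reversed: Lars2 in Acadl KO against Acadl Het, 0.0823 within batch 1. Leaving out Rn45s, other size factors and limma voom kept all 16 counts within 1.5 times. Without the libraries above 10 CPM of Alb, an alternative chosen after seeing the data, Acadl Het / Acadvl Het has no library left, so its contrast and the interaction were not run. For the same reason the controls of Acadl KO against Acadl Het were there Acadl Het / Acadvl wt alone. Where a setting changed a count, the cause was not tested. No paired analysis was possible because replicate numbers were given in accession order and pair nothing. Some sample titles share a leading number, whose meaning the labels do not give, and it was not used.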
